A study of Mus musculus with 11 samples.

Results

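The Six-, Eya- and Pitx-family factors are transcriptional regulators that act early in the myogenic programme, and 7 of their genes were followed here over 3 postnatal ages: Six2, Six4, Six5, Eya1, Eya2, Eya4 and Pitx3. The members were chosen by gene symbol, as every probe set of the array annotated with 1 of these symbols alone. This gave 15 probe sets of 7 genes, out of 45037 probe sets and 18193 genes measured: 6 probe sets of Six-family genes, 8 of Eya genes and 1 of Pitx3.

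All samples were GFP-positive muscle cells sorted by flow cytometry from Pax3GFP/+ mice on a C57BL/6J background, in which 1 Pax3 allele reports the gene with green fluorescent protein. RNA was measured on Affymetrix 3' expression arrays. The groups were trunk muscle labelled as holding proliferating satellite cells at postnatal day 1 (P1, 4 arrays) and day 12 (P12, 4 arrays), and abdominal, pectoral and intercostal muscle with satellite cells at day 28 (P28, 3 arrays). No wild-type or GFP-negative sample was analysed here, and every group carries the Pax3GFP allele. The gate is meant to take Pax3-expressing cells only, though transcripts of other cell types were also read, as described below. The labels call the arrays biological replicates without giving the number of animals behind each, so p-values measure the spread between these arrays. The P28 arrays also differ from the others in the muscles taken and in the suffix of their internal names, so age, muscle and a possible batch cannot be told apart at P28. Their internal names also begin with the code that the P1 arrays carry, while their titles and stated age say P28. The titles were followed here, and every P28 value rests on them.

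Six-family proteins bind DNA through a homeodomain and a neighbouring Six-type domain, and recruit Eya proteins as coactivators. Eya proteins carry a phosphatase domain and have no DNA-binding domain of their own. Together with Pax and Dach factors they form a network that acts upstream of the myogenic determination genes, and Six-family factors bind a site called MEF3 in muscle promoters, best known from myogenin (Myog). Pitx factors are bicoid-type homeodomain proteins. Pitx3 is expressed in differentiating muscle cells and has been tied to the control of redox state in myogenic cells.

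The promoter of Six4 is shown because its probe sets moved together and its window held a MEF3 match, the binding site of the Six-family proteins themselves. MEF3 was searched as TCAGGTTNC, where N is any base, on both strands. The windows were those of RefSeq on GRCm38.p6, from 250 bases before to 50 bases after each annotated start, and 5 of the 7 genes had 1 or more (7 windows). The first Six4 window lies at chr12:73113196-73113495 on the minus strand, and its capitals mark the match.
Six4 promoter: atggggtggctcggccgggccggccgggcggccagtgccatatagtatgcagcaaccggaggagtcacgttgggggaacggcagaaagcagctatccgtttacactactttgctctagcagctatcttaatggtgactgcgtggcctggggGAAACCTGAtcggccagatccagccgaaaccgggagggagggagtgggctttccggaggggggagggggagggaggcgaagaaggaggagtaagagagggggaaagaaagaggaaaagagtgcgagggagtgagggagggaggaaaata
For comparison, the stretch around the Myog match is given, the only MEF3 match among the 57 genes with a promoter window of the 77 in the 6 gene lists described below, at chr1:134289890-134289958 on the plus strand, again with the match in capitals.
Myog stretch: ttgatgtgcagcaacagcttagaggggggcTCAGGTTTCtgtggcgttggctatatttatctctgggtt

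Read in the direction of the motif, both matches are TCAGGTTTC. The Six4 match runs from -99 to -91 relative to the annotated start, on the strand opposite to the gene, and the Myog match from -84 to -76 on the strand of the gene. Of 32851 promoter windows, 1.21% held a MEF3 match. The second Six4 window and the windows of Six2, Six5, Eya4 and Pitx3 held none. The bicoid-type motif TAATCC, found in 7.06% of all windows, was in 0 of the 7 member windows. A match describes these letters only.

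Values below are log2 RMA values, as deposited by the authors, with each change given as a log2 difference ± SE from limma and tested two-sided with Benjamini-Hochberg adjustment over all 45037 probe sets. Rose and fell are used of probe sets with an adjusted p below 0.05. A background mark of 4.92 was taken as the 95th percentile of 80 probe sets of olfactory and vomeronasal receptors, genes that muscle cells are not known to use. The arrays had medians of 5.50 to 5.57, pairwise correlations of 0.936 to 0.994 and 0 identical pairs. All 9 satellite cell markers, among them Pax7, Myf5 and Calcr, were above the background mark at every age. Xist is transcribed from the inactive X chromosome of female cells. It was at 11.29 in P1 replicate 1, at 5.82 to 5.96 on the other P1 arrays and at 10.59 to 11.81 on all P12 and P28 arrays. The low level was thus seen at P1 only. Age and the sex make-up of the samples therefore cannot be fully told apart in comparisons with P1. The part of sex in the results was not tested. On P1 replicate 1, the 3 Six4 probe sets that rose from P1 to P12 (described below) were at 6.89, 7.42 and 7.08, below every P12 array, and the last 2 values were the highest of the P1 arrays. In bulk samples, fewer cells of a type and less RNA per cell cannot be told apart.

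Of the 15 probe sets, 3 rose and 0 fell from P1 to P12, all of Six4, where 3.25% of all probe sets rose and 4.84% were called. From P12 to P28, 0 rose and 8 fell, where 15.9% of all probe sets fell and 29.4% were called. These were 3 of 4 Six4, 1 of 3 Eya1 and 4 of 4 Eya4 probe sets. From P1 to P28, 0 rose and 5 fell, where 17.4% fell and 35.0% were called, and these were 4 of 4 Eya4 and 1 of 3 Eya1 probe sets. The median change of the 15 probe sets was -0.09, -0.57 and -0.30 in these comparisons, against 0.01, -0.05 and -0.05 over all probe sets. Six4 and Eya4 have 4 probe sets each, so these medians and counts weigh them more than the other members. Single probe sets of Six2, Six5, Eya2 and Pitx3 passed in no comparison.

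**Figure D1:**
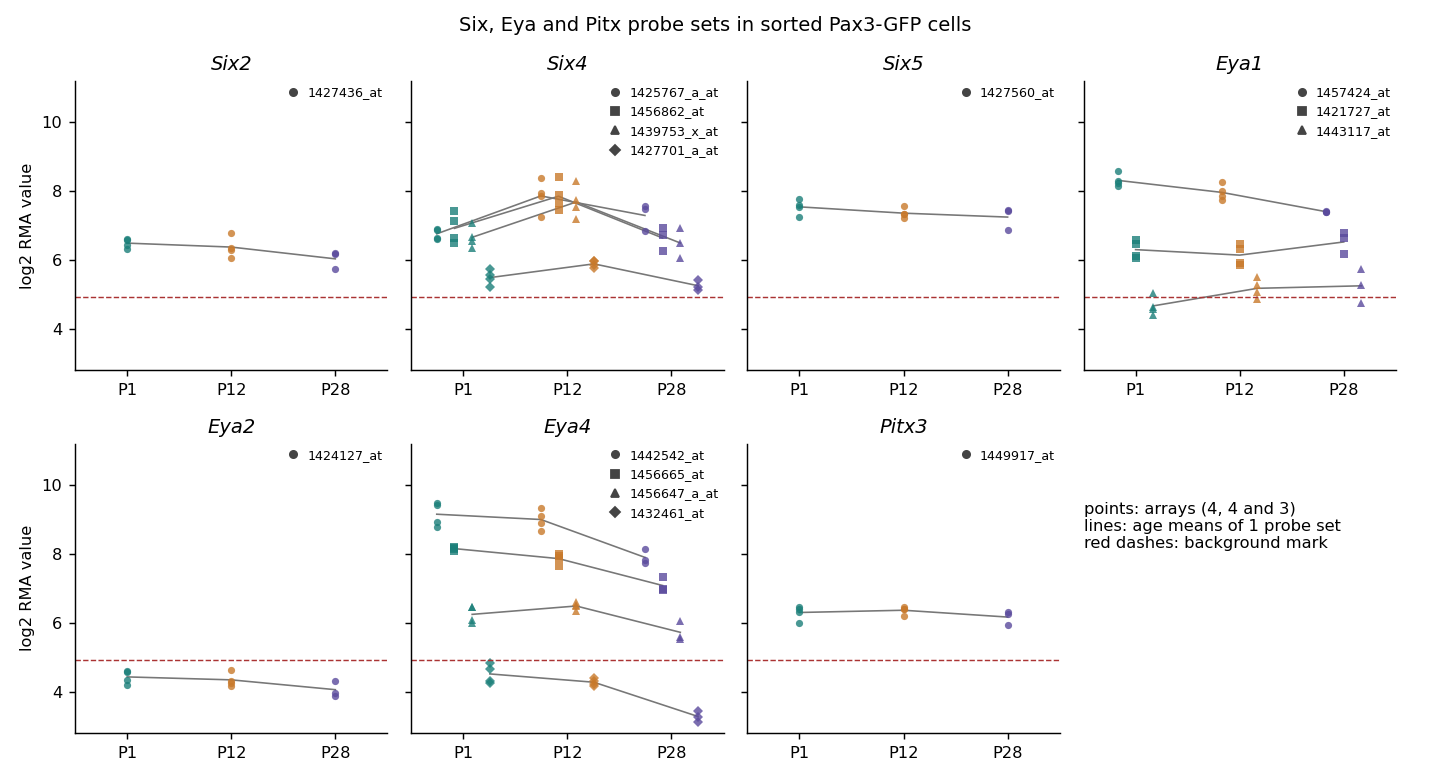
Log2 RMA value of all 15 probe sets on every array (points), by age, with lines through the age means and the background mark of 4.92 as red dashes. The 4 Six4 probe sets peak at P12, and the 4 Eya4 probe sets are lowest at P28.

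Six4, a Six-family factor of muscle progenitors, was the member with a peak at P12. Its brightest probe set, 1425767_a_at, stood at 6.89, 6.65, 6.89 and 6.61 on the P1 arrays, at 8.39, 7.95, 7.86 and 7.26 on the P12 arrays and at 6.84, 7.56 and 7.48 on the P28 arrays. Every P12 array lay above every P1 array, whereas the P28 arrays overlapped both. It rose by 1.10 ± 0.21 from P1 to P12 (2.14-fold, adjusted p = 0.0108). Its later change of -0.57 ± 0.23 (adjusted p = 0.081) did not pass, nor did the difference of 0.53 ± 0.23 between P28 and P1 (adjusted p = 0.089). Without P12 replicate 4, the lowest P12 array, the step to P28 was -0.77 and passed, and the difference between P28 and P1 passed at an unaltered 0.53. The latter also passed without P28 replicate 1, at 0.76, and with the 2 ages alone in the fit. With array weights the step to P28 was -0.64 and passed.

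Probe sets 1456862_at and 1439753_x_at of Six4 are listed under the same source sequence in the annotation, so they are not independent readings. The first was at 7.42, 7.13, 6.63 and 6.50 at P1, at 7.89, 8.40, 7.66 and 7.47 at P12 and at 6.27, 6.93 and 6.72 at P28. The P12 arrays lay above all others, by a narrow gap over the highest P1 array. It rose by 0.93 ± 0.23 (adjusted p = 0.0356) and then fell by 1.21 ± 0.25 (adjusted p = 0.00253). The second was at 6.35 to 7.08 at P1, 7.18 to 8.29 at P12 and 6.06 to 6.94 at P28, with the P12 arrays again above all others. It gave 1.03 ± 0.24 (adjusted p = 0.0255) and -1.19 ± 0.26 (adjusted p = 0.00318). Between P28 and P1 both overlapped, with -0.28 (95% interval -0.82 to 0.26) and -0.17 (-0.72 to 0.38). The rise of both lost its call without any of P1 replicates 2, 3 and 4 or P12 replicates 1 and 2 (0.75 to 1.03), and that of 1456862_at also after quantile normalization (0.83), while that of 1425767_a_at passed without each array in turn (0.93 to 1.30).

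The dimmest Six4 probe set, 1427701_a_at, was at 5.74, 5.44, 5.57 and 5.21 at P1, at 5.85, 5.76, 5.98 and 5.97 at P12 and at 5.13, 5.21 and 5.42 at P28. The P12 arrays again lay above all others. The step from P1 to P12 was 0.40 ± 0.13 (adjusted p = 0.1), which passed with array weights only (0.47), and the step from P12 to P28 was a fall of 0.63 ± 0.14 (adjusted p = 0.00367). All 4 Six4 probe sets therefore had P12 arrays wholly above the P1 arrays, where 6.18% of all probe sets did, and 3 of 4 had P28 arrays wholly below the P12 arrays, where 19.9% did. Being of the same gene on the same arrays, these probe sets are not independent readings to set against such shares.

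The size of the second step of Six4 moved with a technical measure. RNA that is partly degraded or copied from its tail reads higher at the 3' end, and the array carries Gapdh controls for both ends. On the log2 scale the 3' control exceeded the 5' control by 1.62 to 2.79 on the P1 arrays, by 1.32 to 3.05 on the P12 arrays and by 0.79 to 0.99 on the P28 arrays, so the P28 arrays lay below all others in this 3' bias. With this measure as a covariate, the step from P12 to P28 was -0.64 in 1456862_at and -0.74 in 1439753_x_at, and neither passed. In 1425767_a_at, where it had not passed without the covariate, it went from -0.57 to -0.30 (adjusted p = 0.514). In 1427701_a_at it was -0.68 and passed. Since the P28 arrays lay outside the range of the others, covariate values for P28, here and below, are extrapolations. Age and 3' bias cannot be told apart at P28. The covariate left the step from P1 to P12 at 1.12, 0.97 and 1.06 in the 3 probe sets that rose, and all passed. Within the P1 and P12 arrays, replicates 1 and 2 had the higher 3' bias. Within these replicates alone 1425767_a_at was 1.40 higher at P12, against 0.80 within replicates 3 and 4. The same values were 1.20 and 0.85 in 1439753_x_at, but 0.87 and 1.00 in 1456862_at and 0.21 and 0.58 in 1427701_a_at. Which replicates gave the larger step thus differed between the Six4 probe sets.

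Eya4, a coactivator of Six-family proteins, was the member with a fall in all its probe sets. The brightest, 1442542_at, was at 9.48, 9.42, 8.78 and 8.94 at P1, at 9.09, 9.34, 8.90 and 8.67 at P12 and at 8.15, 7.81 and 7.74 at P28. The P1 and P12 arrays overlapped, and all 3 P28 arrays lay below them. It changed by -0.15 ± 0.18 from P1 to P12, with a 95% interval of -0.55 to 0.24. It then fell by 1.10 ± 0.20 from P12 to P28 (2.14-fold, adjusted p = 0.000977), and from P1 to P28 the change was -1.25 ± 0.20 (adjusted p = 0.000267).

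A second Eya4 probe set, 1456665_at, stood at 8.15, 8.21, 8.07 and 8.18 at P1, at 7.93, 7.64, 8.00 and 7.88 at P12 and at 6.94, 6.99 and 7.32 at P28. Each age lay wholly below the one before. The first step, -0.29 ± 0.12 (adjusted p = 0.207), did not pass. The second was a fall of 0.78 ± 0.13 (adjusted p = 0.000543), and from P1 to P28 the change was -1.07 ± 0.13 (adjusted p = 3.01e-05).

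Another Eya4 probe set, 1456647_a_at, was at 6.45, 6.07, 5.99 and 6.47 at P1, at 6.33, 6.52, 6.60 and 6.50 at P12 and at 5.53, 5.60 and 6.04 at P28. It fell by 0.76 ± 0.16 from P12 to P28 (adjusted p = 0.00273). Its P28 arrays overlapped the P1 arrays, and the fall of 0.52 ± 0.16 against P1 (adjusted p = 0.0214) lost its call with the replicate number as a block (-0.45), with the 3' bias covariate (-0.60) and without P1 replicate 1 (-0.45) or 4 (-0.45) or P28 replicate 1 (-0.43) or 2 (-0.46). The fourth, 1432461_at, lay below the background mark on every array, at 4.25 to 4.84, 4.17 to 4.40 and 3.11 to 3.45, so the size of its fall of 1.00 ± 0.15 from P12 to P28 is uncertain.

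The fall of Eya4 from P12 to P28 also stood beside the lower 3' bias at P28. Probe set 1442542_at was higher in replicates 1 and 2, which had the higher 3' bias, by 0.59 at P1 and by 0.43 at P12. Probe set 1456665_at differed by 0.05 and -0.15 in the same comparison, and 1456647_a_at by 0.03 and -0.12. The dim 1432461_at was higher in replicates 1 and 2 by 0.46 and 0.17, in the same direction as 1442542_at. With the covariate the fall from P12 to P28 was -0.64, -0.88, -0.84 and -0.72 in the 4 probe sets in the order described, and all passed. The value for 1442542_at was thus -1.10 without and -0.64 with the covariate.

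**Figure D2:**
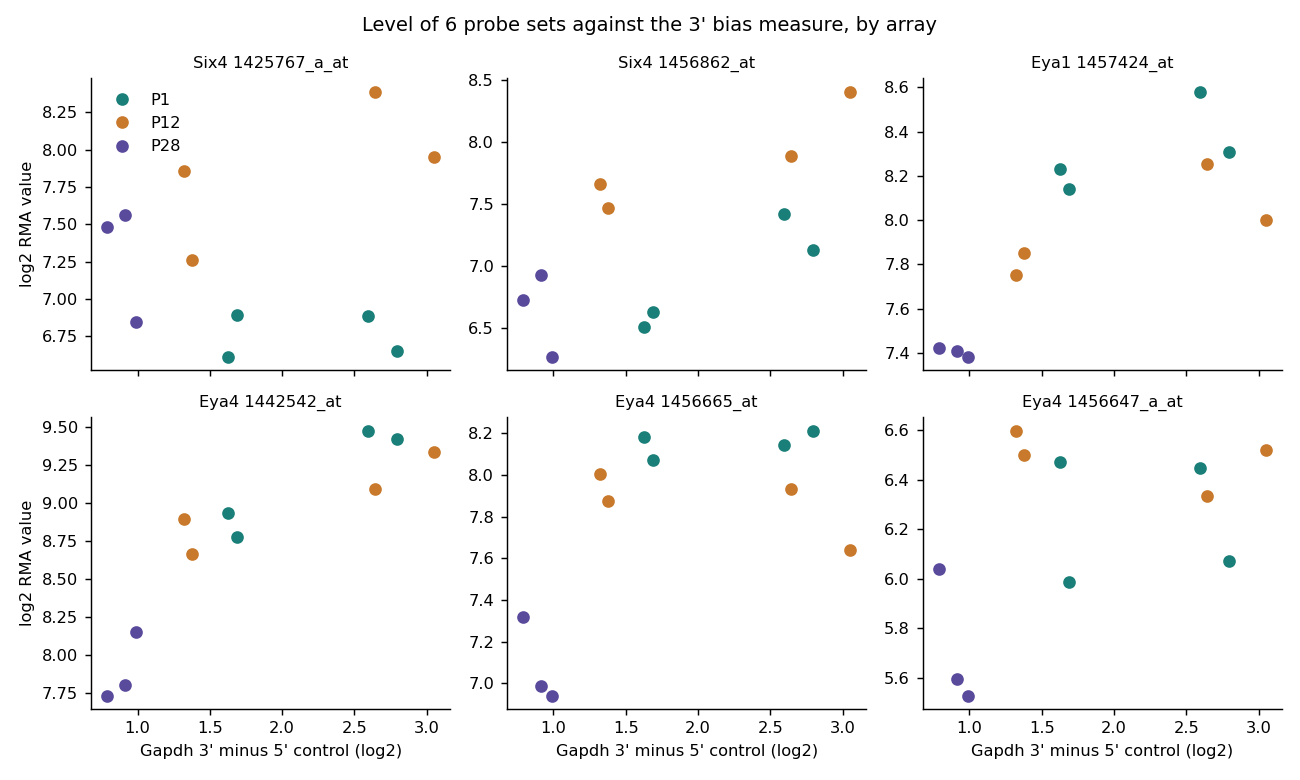
Log2 RMA value of 6 probe sets (y axis) against the log2 difference of the Gapdh 3' and 5' controls (x axis), with 1 point for each array, coloured by age. In Eya4 1442542_at the level is higher on arrays with more 3' bias within P1 and within P12, and in Eya4 1456665_at and 1456647_a_at the P28 arrays lie low with no such order among the other arrays.

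Eya1, the Eya member whose loss impairs early muscle formation together with Eya2, gave probe sets that did not move together. The brightest, 1457424_at, was at 8.58, 8.31, 8.14 and 8.23 at P1, at 8.25, 8.00, 7.75 and 7.85 at P12 and at 7.38, 7.41 and 7.42 at P28. The P28 arrays were nearly equal and lay below all others. Its first step of -0.35 ± 0.13 (adjusted p = 0.163) did not pass, and it passed after quantile normalization (-0.47). It fell by 0.56 ± 0.14 from P12 to P28 (adjusted p = 0.00936) and from P1 to P28 the change was -0.91 ± 0.14 (adjusted p = 0.000249). With the 3' bias covariate these values were -0.33, which did not pass, and -0.66, which passed.

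The other two Eya1 probe sets had no fall. Probe set 1421727_at, listed under a RefSeq transcript of the gene, was at 6.46, 6.11, 6.05 and 6.58 at P1, at 5.86, 5.92, 6.32 and 6.48 at P12 and at 6.17, 6.77 and 6.63 at P28. All ages overlapped, and its changes were -0.16 (95% interval -0.55 to 0.23), 0.38 (-0.04 to 0.80) and 0.22 (-0.20 to 0.64). Probe set 1443117_at was near the background mark, at 4.41 to 5.05, 4.87 to 5.51 and 4.75 to 5.74. It was 0.51 ± 0.21 higher at P12 than at P1 (adjusted p = 0.19), a value that passed with the replicate number as a block (0.51) and with the array pairs of like 3' bias as a block. Its difference of 0.58 ± 0.22 between P28 and P1 (adjusted p = 0.0553) passed under 9 of 20 alternatives. The difference between the Eya1 probe sets was not tested.

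Eya2, the remaining Eya member, lay below the background mark on every array, at 4.56, 4.61, 4.19 and 4.35 at P1, 4.17, 4.26, 4.64 and 4.29 at P12 and 3.89, 4.31 and 3.97 at P28. The ages overlapped, and no change passed (adjusted p = 0.83, 0.195 and 0.0812). The difference between P28 and P1, -0.37, passed without P28 replicate 2 (-0.50, adjusted p = 0.0395). Its single probe set gives no level of Eya2 RNA distinguishable from receptor probe sets by this mark.

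Six5, whose gene lies close to the myotonic dystrophy kinase gene Dmpk, was at 7.26, 7.54, 7.78 and 7.61 at P1, 7.33, 7.22, 7.34 and 7.56 at P12 and 7.42, 7.45 and 6.87 at P28. The ages overlapped. Its changes were -0.18 (95% interval -0.51 to 0.15), -0.11 (-0.47 to 0.24) and -0.30 (-0.65 to 0.06). Of the alternatives run, quantile normalization gave a value that passed, that of P28 against P1 (-0.48).

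Six2, best known from kidney progenitors and also expressed in connective tissue, was at 6.33, 6.42, 6.58 and 6.62 at P1, 6.30, 6.79, 6.35 and 6.07 at P12 and 6.20, 6.16 and 5.74 at P28. The P28 arrays lay below all P1 arrays and overlapped those of P12. The difference of -0.46 ± 0.17 between P28 and P1 (95% interval -0.82 to -0.09, adjusted p = 0.0515) missed the threshold, and passed under 9 of 22 alternatives. The steps of -0.11 and -0.34 did not pass in any of them.

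Pitx3 was at 6.47, 6.40, 6.00 and 6.32 at P1, 6.20, 6.40, 6.47 and 6.39 at P12 and 5.94, 6.30 and 6.26 at P28. All ages overlapped. Its changes of 0.07 (95% interval -0.22 to 0.35), -0.20 (-0.50 to 0.11) and -0.13 (-0.44 to 0.17) had intervals reaching no further than 0.50 in either direction, and none passed under any alternative run.

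**Figure D3:**
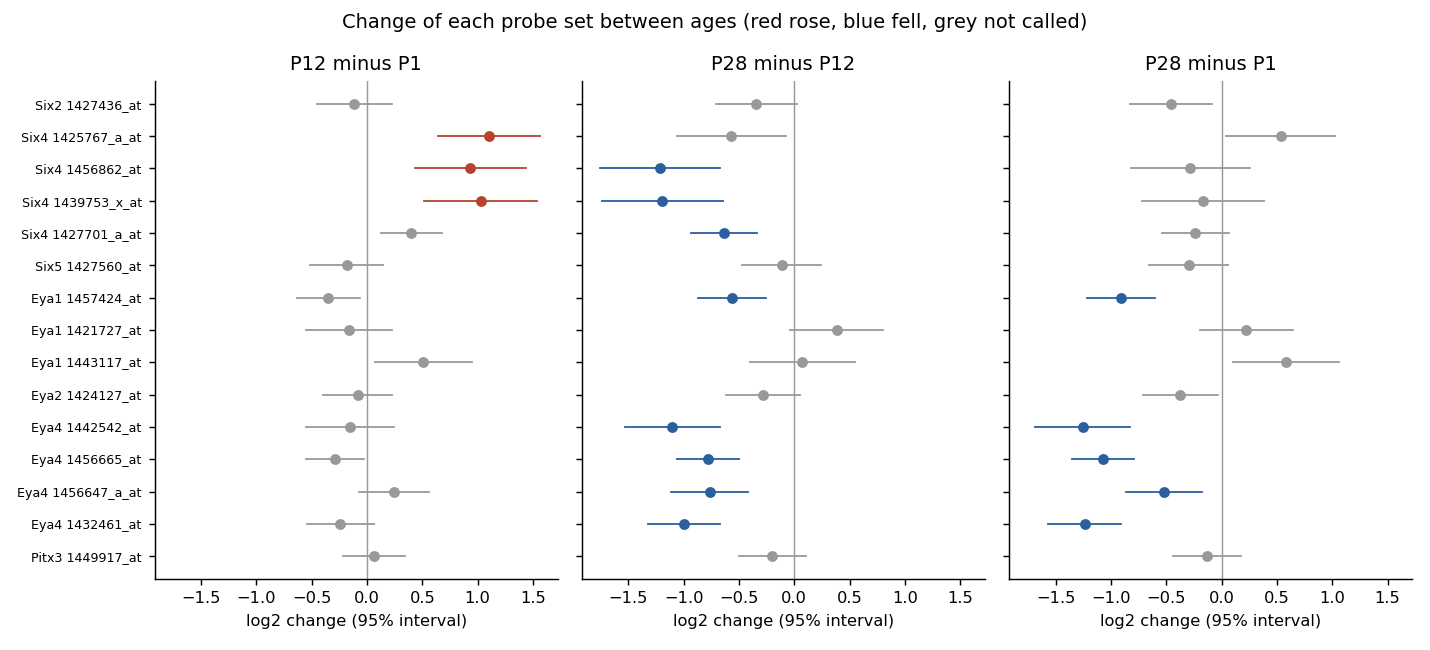
Log2 change of each of the 15 probe sets in 3 comparisons (points) with 95% intervals from the fit (bars), in red where it rose, blue where it fell and grey where it was not called. Red appears in 3 Six4 probe sets from P1 to P12, and the blue points at P28 are Six4, Eya1 and Eya4.

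Ordered by level, Six4 1456862_at and 1439753_x_at ran P12 above P1 and P28, with P1 and P28 not separated by the test. Six4 1425767_a_at ran P12, P28, P1, with P28 separated from neither. Eya4 ran P1 and P12 above P28 in all 4 probe sets, with P1 and P12 not separated. Eya1 1457424_at ran P1, P12, P28, with the first pair not separated. For Six2, Six5, Eya2 and Pitx3 no neighbours were separated.

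Genes of the most similar profile were sought over the 11 arrays, by the root mean square difference between profiles centred on their own means, among 13007 other genes above the background mark. For Six4 1425767_a_at the 3 nearest were Gfod1 (0.28), Sort1 (0.29) and Fam107b (0.30). For Eya1 1457424_at they were Epm2aip1 (0.11), Rai1 (0.12) and Ice1 (0.13). For Eya4 1442542_at they were Zfp362 (0.09), Zfp445 (0.09) and Trio (0.11). By this measure Six4 had no gene as near to it as Eya1 and Eya4 had. The profiles were not scaled, so the distance also grows with the spread of a probe set between arrays.

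The nearest measured genes on each side of a member in RefSeq order were also read. Beside Six4, Mnat1 changed by 0.22 and -0.05 in the successive steps and Six6 by -0.04 and -0.05, none of which passed. On 1 side of Eya4, Slc18b1, with 8 genes between, fell by 0.67 ± 0.13 from P12 to P28, where 15.4% of all genes fell. Tcf21 on the other side, with 4 genes between, did not pass (-0.16). Near Eya1, Lactb2, with 7 genes between, rose by 0.61 ± 0.15 from P1 to P12, where 3.94% of all genes rose. Msc, with 1 gene between, did not pass (0.03). Dmpk, beside Six5, was at 9.73, 10.31 and 9.83 and did not pass.

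Of the other genes of the Six-, Eya-, Pitx- and Dach-families, 6 were analysed here, and 2 of them, Six6 and Dach2, were below the background mark at all ages. From P12 to P28, 0 of the 6 rose and 1 fell, Eya3 (-0.47 ± 0.16, adjusted p = 0.0475), where 15.4% of all genes fell. Eya3 also fell by 0.68 ± 0.16 from P1 to P28. From P1 to P12 none of the 6 was called (0 rose and 0 fell). Pitx1 and Dach1 passed in no comparison.

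Among 12 corepressors and partners of Six-family factors, 0 rose and 1 fell from P1 to P12, where 3.94% of all genes rose and 1.85% fell. The one that fell was the Groucho-type corepressor Tle2 (-0.73 ± 0.15). From P12 to P28, 3 rose and 2 fell, where 15.5% of all genes rose and 15.4% fell, so the share of falls was near that of all genes. The Ski-related corepressor Skil rose by 0.90 ± 0.17, Tle5 by 0.72 ± 0.23 and Tle2 by 0.49 ± 0.16. Sin3a fell by 0.79 ± 0.13 and Tle1 by 0.73 ± 0.19. The median change of this list was 0.14 and then 0.25, against 0.02 and -0.03 over all genes.

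Of 16 myogenic factors beside or downstream of the Six- and Eya-family proteins, 2 rose and 0 fell from P1 to P12, where 3.94% of all genes rose. These were Myog (0.90 ± 0.20), whose promoter holds the MEF3 match shown above, and the migration receptor Met (0.70 ± 0.16). Met then fell by 1.13 ± 0.18 to P28, as 3 of 4 Six4 probe sets did, whereas the change of Myog (-0.52) did not pass. From P12 to P28, 3 of the list rose and 3 fell, where 15.5% of all genes rose and 15.4% fell, so that either share of the list was near that of all genes. The fibre-associated factor Myf6 rose by 1.56 ± 0.26, while the homeobox factor Lbx1 fell by 0.69 ± 0.22 and the T-box factor Tbx1 by 0.66 ± 0.23. Pax7 and Myf5 passed in no comparison.

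Fast fibre genes, a programme tied to Six- and Eya-family activity in adult muscle, did not follow Six4 or Eya4 at P28. Of 16 such genes, 6 rose and 0 fell from P1 to P12, with a median of 0.22, and 15 rose and 1 fell from P12 to P28, with a median of 1.86 against -0.03 over all genes. Tnnc2 rose by 1.29 ± 0.25 in the second step and the glycolytic enzyme Aldoa by 0.85 ± 0.15. The gene that fell was the transporter Slc12a2 (-1.18 ± 0.18), named after its value was seen. Slow fibre genes also rose in that step, 6 of 9 with a median of 1.36. Of 15 redox genes, 1 rose from P1 to P12, where 3.94% of all genes rose. From P12 to P28, 6 rose and 1 fell, where 15.5% rose and 15.4% fell, among them Sod2 (0.42 ± 0.15, adjusted p = 0.0499) and Gpx1 (1.60 ± 0.17). The redox gene that fell was Nrf1 (-0.67 ± 0.21), named after its value was seen.

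**Figure D4:**
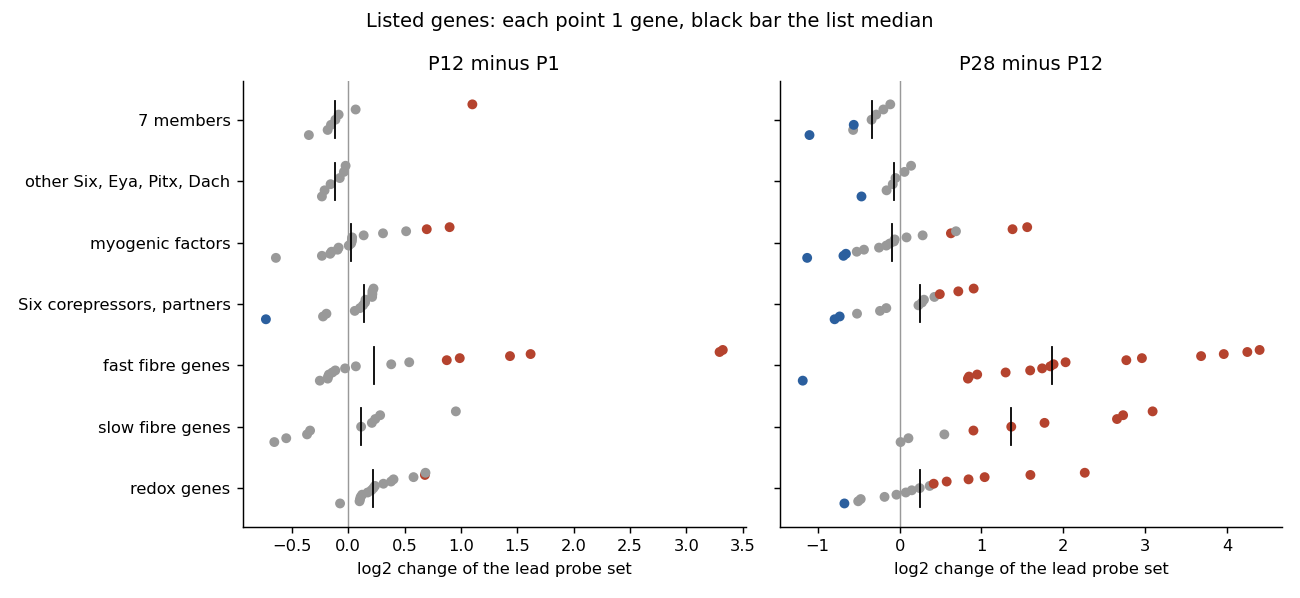
Log2 change of the lead probe set of each gene (points) in the 7 members and 6 fixed lists, from P1 to P12 (left) and from P12 to P28 (right), in red where it rose, blue where it fell and grey where it was not called, with list medians as black bars. In the right panel the fast fibre genes lie mostly above 0, with a median of 1.86, and none of the 7 members lies above 0.

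Markers of other cell types moved with the falls of Eya4, Eya1 and Six4 from P12 to P28, a step in which 15.5% of all genes rose and 15.4% fell. All 5 endothelial markers rose in that step, and their mean level per array was 5.93 to 6.73 at P12 and 8.05 to 8.80 on the P28 arrays. Of 7 myofibre markers, 5 of which are also in the fast fibre list, 6 rose and 1 fell (8.63 to 9.88 and then 11.03 to 11.50). Of 6 fibroblast markers 3 rose (9.76 to 10.23 and 10.78 to 11.52), of 6 macrophage markers 3 (6.41 to 6.76 and 7.75 to 8.60), and of 5 pericyte markers 3 (8.23 to 8.79 and 9.40 to 9.53). Tendon markers rose in 2 of 4 (5.65 to 6.07 and 6.41 to 6.91) and erythroid markers in 1 of 2 (5.37 to 5.94 and 6.20 to 7.39). Schwann cell and melanocyte markers rose in 0 of 4. Of the 9 satellite cell markers 3 rose and 0 fell in that step, with array means of 9.85 to 10.14 before and 10.24 to 10.58 after it. The part of these other markers in the falls was not tested.

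Markers also moved with the rise of Six4 from P1 to P12, in both directions. Over all genes, 3.94% rose and 1.85% fell in that step. Of the 7 myofibre markers 2 rose, Myh4 (3.32 ± 0.40) and Myh1 (1.62 ± 0.17), and Myh8, the perinatal myosin, fell by 1.93 ± 0.22, with array means of 8.71 to 9.07 at P1. Of 5 pericyte markers Rgs5 (1.07 ± 0.25) and Acta2 (0.69 ± 0.17) rose and Cspg4 fell by 0.74 ± 0.15 (7.97 to 8.65 at P1). Of 6 fibroblast markers 0 rose and 1 fell, Pdgfra by 1.45 ± 0.29 (list mean 9.99 to 10.52 at P1). Of 6 macrophage markers 0 rose and 1 fell, Cd68 by 1.38 ± 0.22 (6.90 to 7.05 at P1). The list medians were -0.04 for fibroblast and -0.39 for macrophage markers. Of the 9 satellite cell markers 2 rose, Calcr (0.76 ± 0.16) and Sdc4 (0.63 ± 0.15), and 0 fell. These markers were named after their values were seen. No endothelial, tendon, erythroid, Schwann cell or melanocyte marker was called in that step (0 of 15). The part of these markers in the rise was not tested.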

How the data were processed

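The deposited table holds 1 log2 expression value per probe set and array, made by the authors with RMA, per the submitters' processing notes, which also name Affymetrix Expression Console and affy without versions. A genome build for the arrays is not given in the sources used here. Values were used as deposited. Of 45101 probe sets, 64 controls were left out of the tests. Of the rest, 34945 carried 1 symbol, 932 several and 9160 none in the supplied annotation. Titles gave the age of each array.

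All 45037 probe sets were fitted with limma 3.58.1 in R 4.3.3, on group means over 11 arrays with eBayes (8 residual and 5.82 prior degrees of freedom). In simulated data with the real residual spread, a log2 change of 1 was recovered in 83.6% of probe sets from P1 to P12. It was recovered in 65.7% from P12 to P28 and in 70.1% from P1 to P28, and one of 0.5 in 7.46%, 10.4% and 7.46%. Each size was given to 66 or 67 of the 45037 probe sets, whereas 2181, 13229 and 15753 were called in the real comparisons. With fewer changed probe sets the adjusted threshold is stricter, so these shares do not give the recovery in the real fits. Precision is limited by the small number of arrays. Gene lists used each gene's probe set of highest mean over all arrays, and all members were named. Other genes were named by level among those called, by likeness or as neighbours.

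The members and lists were chosen with earlier results of these data known. Same-numbered P1 and P12 arrays deviated together from their group means (correlations 0.143, 0.207, 0.311 and 0.182), but so did differently numbered arrays within replicates 1 and 2 or within 3 and 4 (0.140 to 0.247), against -0.286 to -0.113 across these sets. The deviations thus follow the 2 sets of arrays as much as the number. The number and the set were each used as a block in an alternative fit. The labels do not state a shared litter or day. Alternatives covered scaling, filters on dim probe sets, the probe sets tested, array weights, the prior, the ages in the fit, blocks, the 3' bias covariate and leaving out each array.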

Additional observations from a re-analysis of the deposited data

How the results depend on the processing

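Leaving out each array in turn gave 1 to 3 member probe sets that rose and 0 that fell from P1 to P12, 0 that rose and 8 to 9 that fell from P12 to P28, and 0 to 1 that rose and 4 to 6 that fell from P1 to P28. With 1 probe set per gene, which tests only 7 of the 15, the counts were 1 risen from P1 to P12, 2 fallen from P12 to P28 and 3 fallen from P1 to P28. With the 3' bias covariate 5 fell from P12 to P28. Quantile normalization gave 1 fall from P1 to P12. From P1 to P28, 1 probe set rose after median centring, after quantile normalization, without probe sets under the receptor background, with array weights, with the trend and robust prior, with the 2 ages alone, with the replicate block and with the 3' bias covariate. The replicate block gave 4 risen and 0 fallen from P1 to P12, 0 and 8 from P12 to P28 and 1 and 4 from P1 to P28. The block on array sets (replicates 1 and 2 against 3 and 4) gave 4 and 0 from P1 to P12. Same-numbered arrays did not deviate together between P28 and P12 (correlations 0.03, -0.12 and -0.04) or P28 and P1 (0.09, 0.02 and 0.05), so P28 shares only the number there.

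In tested fits, values that were not called changed sign for Pitx3 from P1 to P12 without P1 replicate 3 (-0.033, with values up to 0.12 without the other arrays), for Six5 from P12 to P28 without P28 replicate 3 (0.073, and -0.21 at the other end), and for Eya1 1443117_at in the same step without P12 replicate 3 (-0.03) or the first P28 replicate (-0.17). From P1 to P28 they did so with the 3' bias covariate for Six4 1456862_at (0.33), Six4 1439753_x_at (0.32) and Eya1 1421727_at (-0.10), and for Six4 1439753_x_at without P28 replicate 1 (0.054, and -0.39 at the other end). Within 1 array set, which gives a value with no test, the change from P1 to P12 turned sign for Six2 (0.17 in set 1), Pitx3 (-0.13 in set 1), Eya2 (0.20 in set 2) and Eya1 1421727_at (0.083 in set 2). The causes were not tested. No called value changed sign under any alternative run. Of 963 tested alternative values of single probe sets, 906 kept their direction and side of the threshold. Many of these could not change direction, since filters, the prior and leaving out an array of the third age do not alter the estimate. The count is thus no measure of robustness. The Six4 rises kept their call in 23 of 23 (1425767_a_at), 16 of 22 (1456862_at) and 16 of 21 (1439753_x_at) alternatives.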
